A study of Sus scrofa with 9 samples.

Results

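Transcripts of 4 genes that handle glutamine and ammonia, GLUL, GLS2, GLUD1 and RHBG, were examined in pig liver. Members were taken by gene symbol from a table of raw RNA sequencing counts, where all 4 of the 29837 listed symbols were found and all 4 passed the low-count filter. The set was selected on readouts of these same libraries, since the MIDY against WT differences of GLS2 (higher) and GLUL (lower) were already known. Group differences of the 4 genes are therefore given as a description with standard errors and without a test. Livers came from 4 MIDY and 5 wild type (WT) pigs, all females aged 2 years. MIDY (mutant INS gene-induced diabetes of youth) denotes pigs with a transgene for the C94Y form of insulin. Diabetic animals received short and long acting insulin, so the transgene, the diabetes and the insulin treatment cannot be told apart. The labels do not give the promoter of the transgene or the number of founder lines, and every library is labelled with its own animal number.

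Liver disposes of ammonia by 2 routes that, in rodent liver, lie in different zones of the lobule. Hepatocytes near the portal vein, called periportal, make urea, and GLS2, the liver-type mitochondrial glutaminase, releases ammonia from glutamine there. Hepatocytes next to the central vein, called pericentral or perivenous, take up the ammonia that escapes, and GLUL, glutamine synthetase, fixes it onto glutamate. RHBG is an Rh glycoprotein that carries ammonia across the plasma membrane and is known from the perivenous cells and from kidney. GLUD1, glutamate dehydrogenase, interconverts glutamate with 2-oxoglutarate and free ammonia in mitochondria. In whole tissue, fewer cells of one type and less RNA per cell cannot be told apart, and nothing here measures enzyme activity or ammonia.

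The 9 libraries held 14115415 to 19533463 counts. Levels are CPM, counts scaled to 1000000 per library after TMM normalization, and the median log2 fold change over the 14100 genes tested was -0.00. On principal components of the 500 most variable genes, WT replicate 2 stood apart on the second component (25.2, against -11.0 to 4.12 in the other 8 libraries). WT replicate 1 lay closer to the MIDY libraries on the first component (-0.90) than the other WT libraries did (11.8 to 20.0). Differences between the groups in the 4 members are therefore also given without these libraries. All 8 hepatocyte markers (ALB, APOA1 and TTR among them) were present, with a summed level of 109523 to 165704 CPM in WT and 133975 to 164715 CPM in MIDY liver. The lowest sum was that of WT replicate 2. ALB had the most counts of these markers (1481533 to 2520377 per library), so the sum mainly follows ALB.

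GLUL lies on chromosome 9 (123751551 to 123762575, Sscrofa11.1). Its levels in WT replicates 1 to 5 were 312, 486, 176, 220 and 189 CPM. MIDY replicates 1 to 4 gave 124, 138, 191 and 109 CPM. The WT values spread widely, with WT replicate 2 the highest of all, and the groups overlapped, because MIDY replicate 3 lay above WT replicates 3 and 5. Group means were 277 ± 129 CPM in WT (SD, n = 5) and 140 ± 35.6 CPM in MIDY liver (SD, n = 4), with a log2 fold change of -0.98 ± 0.31 (SE), or 1.97-fold lower in MIDY. Without WT replicate 2 the log2 fold change was -0.68, and without WT replicates 1 and 2 together it was -0.48. A gene model that shares 842 bases of the GLUL span, LOC110255568, had at most 2 counts in any library.

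GLS2 lies on chromosome 5 (21806405 to 21820001). WT replicates 1 to 5 had 132, 132, 119, 124 and 130 CPM, and MIDY replicates 1 to 4 had 206, 208, 227 and 173 CPM. Every MIDY liver lay above every WT liver. The coefficient of variation (SD over mean) was 4.53% among WT and 11.06% among MIDY livers, where counting error alone gives at most 2.41%. Means of 127 ± 5.77 CPM (SD, n = 5) and 203 ± 22.5 CPM (SD, n = 4) gave a log2 fold change of 0.68 ± 0.10 (SE), or 1.60-fold. Leaving out any 1 library kept this value between 0.62 and 0.74, and without WT replicates 1 and 2 together it was 0.71. The GLS2 span shares 10356 bases with SPRYD4 and 150 bases with RBMS2, whose log2 fold changes were -0.04 ± 0.13 and 0.10 ± 0.13 (SE; edgeR adjusted p = 0.914 and 0.762).

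GLUD1 lies on chromosome 14 (87968850 to 88005375). In WT replicates 1 to 5 it stood at 916, 782, 644, 772 and 691 CPM, and in MIDY replicates 1 to 4 at 797, 1083, 1002 and 816 CPM. MIDY replicates 2 and 3 exceeded every WT liver, whereas MIDY replicates 1 and 4 lay below WT replicate 1. From 761 ± 104 CPM in WT (SD, n = 5) to 924 ± 141 CPM in MIDY liver (SD, n = 4), the log2 fold change was 0.28 ± 0.14 (SE), or 1.22-fold. With single libraries left out it ranged from 0.20 to 0.35, the highest without WT replicate 1, the only WT liver above the lowest MIDY liver. Without WT replicates 1 and 2 together it was 0.39.

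RHBG lies on chromosome 4 (93694259 to 93708055) and was the least deeply counted of the 4 genes, with 88 to 437 counts per library. It measured 12.3, 21.8, 7.73, 10.2 and 4.97 CPM in WT replicates 1 to 5 and 21.0, 29.2, 15.4 and 10.9 CPM in MIDY replicates 1 to 4. The groups overlapped: WT replicate 2 exceeded 3 of the 4 MIDY livers, and MIDY replicate 4 lay below WT replicates 1 and 2. Counting error alone gives a coefficient of variation of at most 10.7%, against 56.4% among WT and 41.2% among MIDY livers. Means were 11.4 ± 6.44 CPM (SD, n = 5) and 19.1 ± 7.87 CPM (SD, n = 4), with a log2 fold change of 0.73 ± 0.42 (SE). That value was 1.12 without WT replicate 2, 1.32 without WT replicates 1 and 2 together, and 0.46 without MIDY replicate 2. RHBG and GLUL were thus both at their WT maximum in WT replicate 2, while their fitted MIDY against WT differences had opposite signs.

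**Figure D1:**
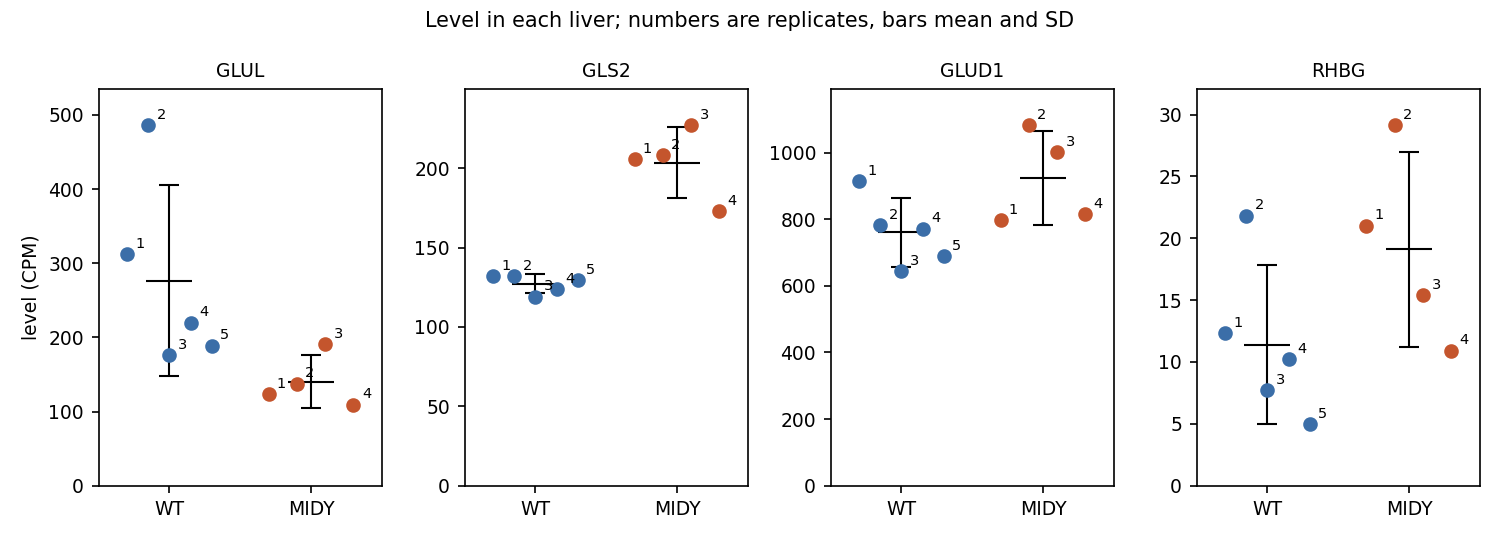
Level (CPM, linear axis from 0) of GLUL, GLS2, GLUD1 and RHBG in each liver, with WT in blue and MIDY in orange, replicate numbers beside the points, and bars for mean and SD (n = 5 and 4). Only GLS2 shows no overlap between the groups, and WT replicate 2 is the highest WT liver for GLUL (486 CPM) and RHBG (21.8 CPM).

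In the fit over all genes, 1 of the 4 members, GLS2, had an edgeR adjusted p below 0.05 with a higher level in MIDY, and 0 of 4 passed with a lower one. Among all 14100 genes tested 1.17% were called, 0.816% higher and 0.355% lower. By DESeq2 the count was 2 of 4, GLS2 and GLUL, against 4.62% of all genes with an adjusted p from that tool. The groups did not overlap for 1 of the 4 members, GLS2, and for 6.35% of all genes tested. Because the same contrast was known when the members were chosen, nothing is read from these counts.

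**Figure D2:**
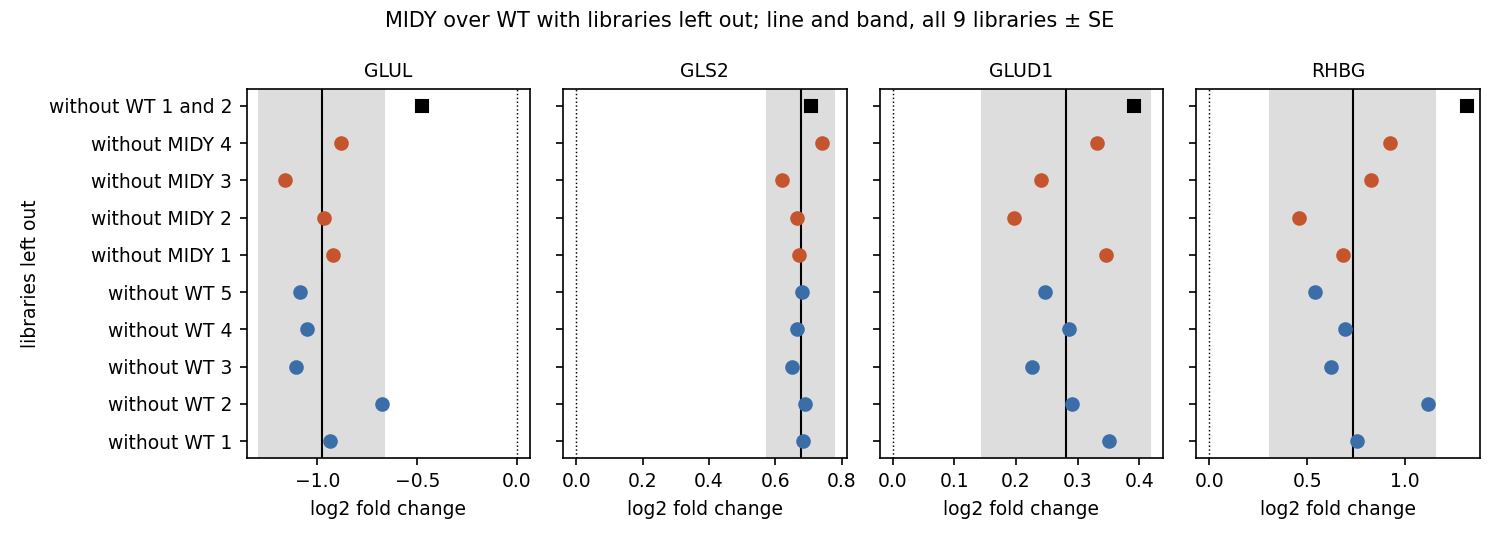
Log2 fold change (MIDY over WT) of each member with 1 library left out (circles, blue for WT and orange for MIDY) or with WT replicates 1 and 2 both left out (squares); the line and grey band give the value over all 9 libraries and its SE. GLS2 stays between 0.62 and 0.74 in the circles, whereas GLUL moves to -0.68 and RHBG to 1.12 without WT replicate 2.

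Ratios between members within a library do not depend on how libraries were scaled, and only their difference between groups can be read, because gene lengths were not corrected for. The log2 ratio of GLS2 to GLUL counts was -1.24, -1.88, -0.56, -0.83 and -0.54 in WT replicates 1 to 5. In MIDY replicates 1 to 4 it was 0.73, 0.60, 0.25 and 0.66. Every MIDY liver had a higher ratio than every WT liver, with a gap of 0.80 between the groups. Means of -1.01 ± 0.56 (SD, n = 5) and 0.56 ± 0.21 (SD, n = 4) differ by 1.57, a 2.97-fold shift, and by 1.20 without WT replicates 1 and 2. The rise in GLS2 and the fall in GLUL were both known when the members were chosen, so nothing is read from this separation.

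The log2 ratio of RHBG to GLUL counts ran from -5.24 to -4.42 in WT and from -3.63 to -2.24 in MIDY liver, with no overlap and a difference of 1.72, or 1.78 without WT replicates 1 and 2. The fall in mean GLUL, which was known when the members were chosen, enters this ratio, and RHBG on its own overlapped between the groups. WT replicate 2, which was high in both genes, had a ratio of -4.48, inside the range of the other WT livers. For GLUD1 over GLS2 the log2 ratio was 2.57 ± 0.15 in WT (SD, n = 5) and 2.18 ± 0.18 in MIDY liver (SD, n = 4). The difference was -0.39, or -0.32 without WT replicates 1 and 2, with a gap of 0.04 between the groups. The rise in GLS2, also known beforehand, enters this ratio. Among the other ratios formed, those of GLUD1, OAT and CPS1 to GLUL were apart between the groups. RHBG over GLS2 overlapped (-4.70 to -2.60 in WT, -3.98 to -2.83 in MIDY), as did RHBG over GLUD1 (-7.11 to -5.16 and -6.22 to -5.21). SLC1A2 over GLUL overlapped too (-3.67 to -2.15 and -2.45 to -1.19).

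**Figure D3:**
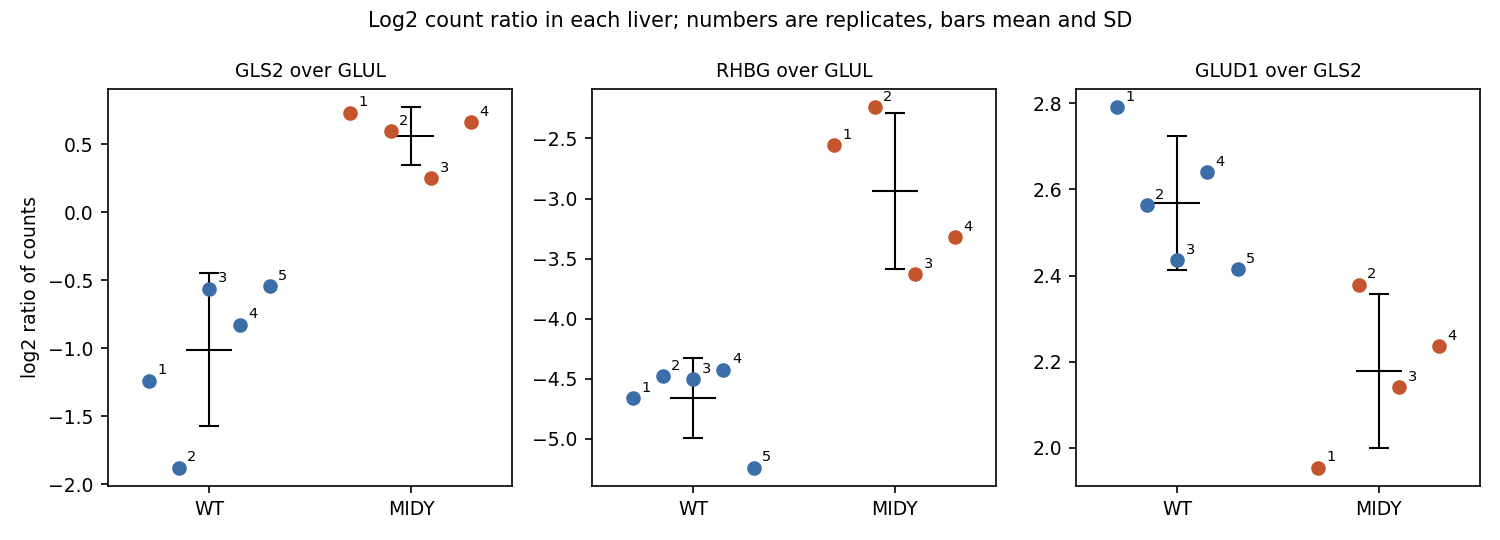
Log2 ratio of counts within each library for GLS2 over GLUL, RHBG over GLUL and GLUD1 over GLS2, with WT in blue, MIDY in orange, replicate numbers beside the points and bars for mean and SD. In all 3 panels the groups are apart, most narrowly for GLUD1 over GLS2, where the gap is 0.04. Each of these ratios contains GLUL or GLS2, whose differences were known beforehand. The ratios of RHBG to GLS2, RHBG to GLUD1 and SLC1A2 to GLUL, not shown here, overlapped between the groups.

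Other markers of the pericentral zone did not share one direction. Of 15 such genes tested, 1 rose and 0 fell by edgeR, against 0.816% and 0.355% of all genes tested. The median log2 fold change was -0.14. TBX3, a transcription factor of the Wnt-responsive pericentral zone, rose from 20.2 ± 4.04 to 38.4 ± 8.91 CPM (mean ± SD over 5 and 4 livers; edgeR adjusted p = 0.0310). SLC1A2, the glutamate transporter that supplies GLUL-positive hepatocytes, measured 49.8, 38.3, 22.3, 27.1 and 42.6 CPM in WT replicates 1 to 5 and 54.2, 48.4, 35.0 and 32.5 CPM in MIDY replicates 1 to 4. These ranges overlapped widely (0.24 ± 0.24 log2, SE; edgeR adjusted p = 0.674). OAT, ornithine aminotransferase, which yields glutamate, measured 75.8 to 174 CPM in MIDY and 36.5 to 60.5 CPM in WT livers. These groups did not overlap, as for 6.35% of all genes tested. OAT missed the edgeR threshold (1.11 ± 0.24 log2, SE, edgeR adjusted p = 0.0532). RNF43, a Wnt feedback ubiquitin ligase, and AHR, the dioxin receptor, had log2 fold changes of -0.96 ± 0.28 and -0.72 ± 0.18 (SE; edgeR adjusted p = 0.128 and 0.0798). The TBX3 call was lost without MIDY replicate 2 or 3 or without WT replicate 2, 3 or 4 (edgeR adjusted p up to 0.0846), and 2 genes of the list were called without MIDY replicate 4 or WT replicate 1. With WT replicates 1 and 2 both left out, 0 were called by edgeR. Over all libraries DESeq2 called 4 of the 15, against 4.62% of all genes with an adjusted p from that tool. TBX3 and OAT were called higher, and RNF43 and AHR lower. The calls of OAT, RNF43 and AHR thus depended on the tool.

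Periportal markers other than GLS2 lay mostly higher in MIDY liver. Of 14 tested, 5 rose and 0 fell, against 0.816% and 0.355% of all genes tested. This list, like the others, was chosen with earlier results of these data known, so nothing is read from its counts. Fitted values lay above 0 for 12 of the 14, against 49.3% of all genes. The median log2 fold change of the 14 was 0.46. Below 0 were ALDH1B1 (-0.78 ± 0.24 log2, SE) and G6PC (-0.23 ± 0.39), with overlapping groups (edgeR adjusted p = 0.142 and 0.834). SDS, the serine and threonine dehydratase, rose by 2.24 ± 0.36, ARG1, the arginase that releases urea, by 1.28 ± 0.24, HAL, which removes ammonia from histidine, by 0.97 ± 0.17, and ASS1, argininosuccinate synthase, by 0.81 ± 0.13 in log2 units (± SE; edgeR adjusted p = 0.0273, 0.0302, 0.0231 and 0.0144). FBP1, the fructose bisphosphatase of gluconeogenesis, rose by 0.90 ± 0.17 (SE; edgeR adjusted p = 0.0273). ASS1 was called in all 9 fits that left out 1 library. Calls of the others were lost for ARG1 when MIDY replicate 1 or 2 or WT replicate 2 or 3 was left out, for HAL with MIDY replicate 2 or WT replicate 2, 3 or 4, for SDS with MIDY replicate 1 or WT replicate 2, 3, 4 or 5, and for FBP1 with MIDY replicate 1, 2 or 3 or WT replicate 2, 3 or 5 (edgeR adjusted p up to 0.0733, 0.0674, 0.0746 and 0.0860). The count of 5 dropped to 1 when either WT replicate 2 or 3 was left out, to 2 for MIDY replicate 1 or 2, to 3 for WT replicate 4 or 5, and to 1 when WT replicates 1 and 2 were both left out.

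**Figure D4:**
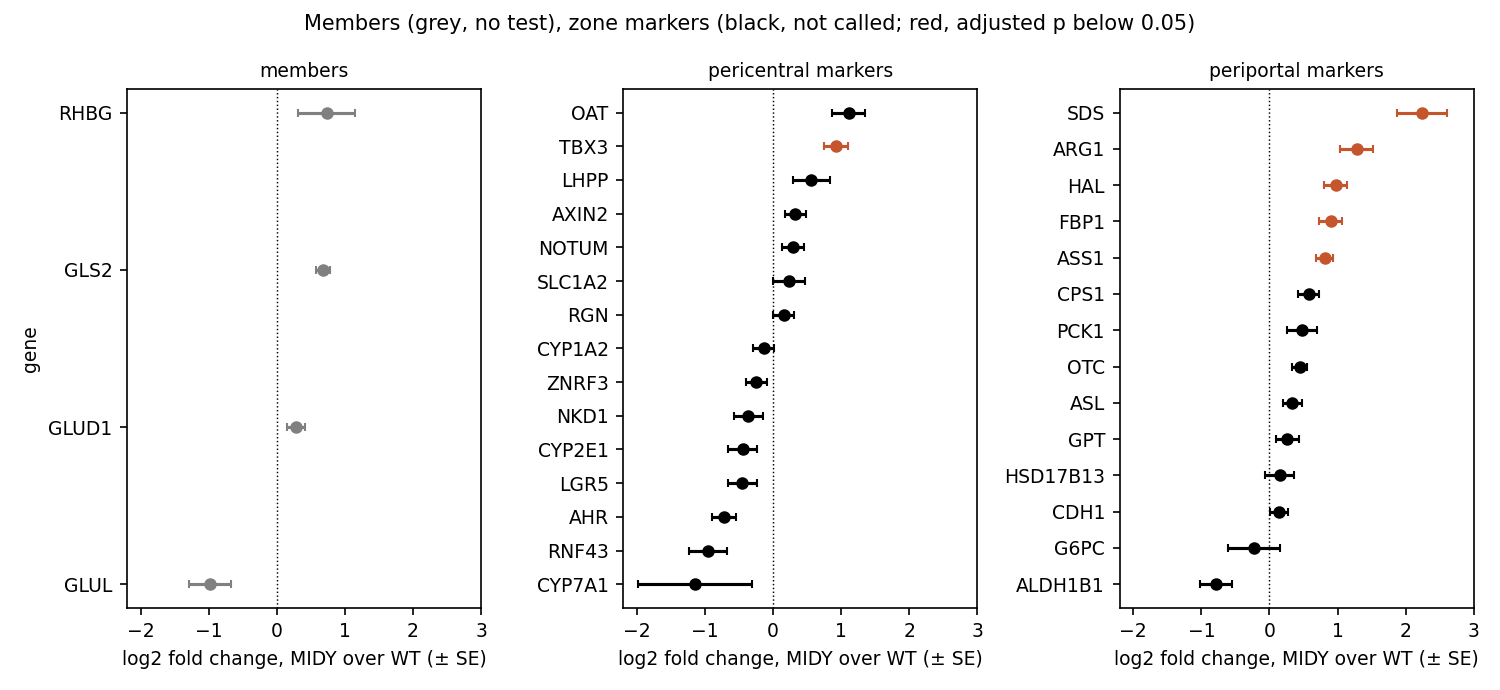
Log2 fold change (MIDY over WT, with SE) of the 4 members (grey, no test), of 15 pericentral and of 14 periportal markers, where red points have an edgeR adjusted p below 0.05 and black points do not. Pericentral markers fall on both sides of 0, with TBX3 the 1 red point, and 12 of the 14 periportal markers lie above 0, 5 of them red.

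The urea cycle, which takes up ammonia through CPS1, held 9 tested genes, of which 2 (ASS1 and ARG1) rose and 0 fell (median log2 fold change 0.48). Of all genes tested, 0.816% rose and 0.355% fell. ASS1 and ARG1 are also counted among the periportal markers. Nothing is read from these counts, because the list was chosen with earlier results of these data known. CPS1, carbamoyl phosphate synthetase, measured 2062 ± 341 CPM in WT (SD, n = 5) and 3069 ± 479 CPM in MIDY livers (SD, n = 4). The groups did not overlap, as for 6.35% of all genes tested. CPS1 was short of the edgeR threshold (edgeR adjusted p = 0.0955). Its log2 ratio to GLUL ran from 2.14 to 3.68 in WT and from 3.72 to 4.88 in MIDY liver, a gap of 0.04. The fall in mean GLUL, known beforehand, enters this ratio as well. OTC, ornithine transcarbamylase, had a log2 fold change of 0.45 ± 0.11 (SE, edgeR adjusted p = 0.0796). DESeq2 called 4 genes of this list, CPS1, OTC, ASS1 and ARG1, each higher in MIDY liver. NAGS, which makes the activator of CPS1, was the 1 gene of the 9 with a fitted value below 0 (-0.39 ± 0.16 log2, SE; edgeR adjusted p = 0.258), and the groups overlapped. The edgeR count of 2 dropped to 1 when MIDY replicate 1 or 2 or WT replicate 2 or 3 was left out. It dropped to 0 when WT replicates 1 and 2 were both left out, and leaving out WT replicate 1 gave 4.

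Enzymes that release ammonia from other substrates included 17 tested genes, of which 3 rose (SDS, HAL and CTH) and 1 fell, with a median of 0.16. Of all genes tested, 0.816% rose and 0.355% fell. SDS and HAL are also counted among the periportal markers. This list too was chosen with earlier results of these data known, and nothing is read from its counts. CTH, cystathionine gamma-lyase, rose from 197 ± 36.8 to 542 ± 137 CPM (mean ± SD over 5 and 4 livers; edgeR adjusted p = 0.00451). AMPD3, an AMP deaminase, fell from 40.4 ± 5.63 to 21.9 ± 5.95 CPM (mean ± SD over 5 and 4 livers; edgeR adjusted p = 0.0279). CTH was called in all 9 fits that left out 1 library, and AMPD3 lost its call when MIDY replicate 2 or 3 or WT replicate 2, 3, 4 or 5 was left out (edgeR adjusted p up to 0.0957). The list held 2 called genes without MIDY replicate 2 or WT replicate 5, and 1 when WT replicate 2, 3 or 4, or both WT replicates 1 and 2, were left out.

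Among 15 tested enzymes that make or use glutamate, the shared substrate of GLUL and GLUD1, 2 rose and 0 fell (median 0.26). Of all genes tested, 0.816% rose and 0.355% fell. The 2 called genes are aminotransferases. GOT1, the cytosolic aspartate aminotransferase, rose by 1.26 ± 0.15 and GPT2, the mitochondrial alanine aminotransferase, by 1.74 ± 0.23 in log2 units (± SE; edgeR adjusted p = 0.00346 and 0.00696), and each was called in all 9 fits that left out 1 library. GCLM, the modifier subunit of glutamate-cysteine ligase, was at 0.52 ± 0.18 (SE; edgeR adjusted p = 0.183). AADAT and GAD1 had 0 counts in all libraries, which allows up to 3 counts per library, or at most 0.209 CPM.

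Of 14 other genes that use the amide or amino group of glutamine, 1 rose and 0 fell (median 0.08). Among all genes tested, 0.816% rose and 0.355% fell. KYAT1, a glutamine transaminase, rose from 14.4 ± 2.31 to 32.9 ± 13.4 CPM (mean ± SD over 5 and 4 livers; edgeR adjusted p = 0.0389). This call was kept in 1 of the 9 fits that left out 1 library, that without MIDY replicate 4, and was lost without any of MIDY replicates 1 to 3 or WT replicates 1 to 5 (edgeR adjusted p up to 0.0878) and without WT replicates 1 and 2 together. NADSYN1, the glutamine-dependent NAD synthetase, and PPAT, the first enzyme of purine synthesis, had log2 fold changes of 0.40 ± 0.13 and 0.28 ± 0.14 (SE; edgeR adjusted p = 0.144 and 0.340).

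None of 17 tested carriers of glutamine and glutamate was called in either direction by edgeR or by DESeq2 (median log2 fold change 0.17 by edgeR). An unadjusted edgeR p below 0.05 was found for 4 of these 17, and for 2277 of all 14100 genes tested. SLC38A3, the sodium-coupled glutamine carrier of hepatocytes, measured 206, 161, 285, 191 and 225 CPM in WT replicates 1 to 5 and 299, 425, 300 and 193 CPM in MIDY replicates 1 to 4. MIDY replicate 2 was the highest and MIDY replicate 4 lay among the WT livers (0.51 ± 0.21 log2, SE; edgeR adjusted p = 0.268). SLC38A4, a hepatic carrier of neutral and cationic amino acids, measured 1275 to 1408 CPM in MIDY and 933 to 1273 CPM in WT livers. These groups were just without overlap, which held for 6.35% of all genes tested. SLC38A4 had a log2 fold change of 0.32 ± 0.12 (SE, edgeR adjusted p = 0.214). SLC7A5, the large neutral amino acid exchanger, and SLC25A12, a mitochondrial aspartate-glutamate carrier, had values of 0.70 ± 0.27 and -0.47 ± 0.20 (SE; edgeR adjusted p = 0.230 and 0.270). Relatives of RHBG were near or at 0: RHCG had 0 counts in all libraries, RHAG at most 6 and RHCE at most 9 in any library, and none passed the filter. Of 17 tested genes known to act on the members, among them SIRT3, HADH, CRBN, FOXO3, CTNNB1 and TCF7L2, edgeR called 0, and 1, STAT5B, had an unadjusted p below 0.05 (0.22 ± 0.09 log2, SE; edgeR adjusted p = 0.286). DESeq2 called 0 of them too. SIRT3, a mitochondrial deacetylase, STAT5A, a growth hormone-responsive factor, and TCF7L2, a partner of beta-catenin, had log2 differences of 0.31, -0.33 and 0.30 (edgeR adjusted p = 0.389, 0.504 and 0.619).

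**Figure D5:**
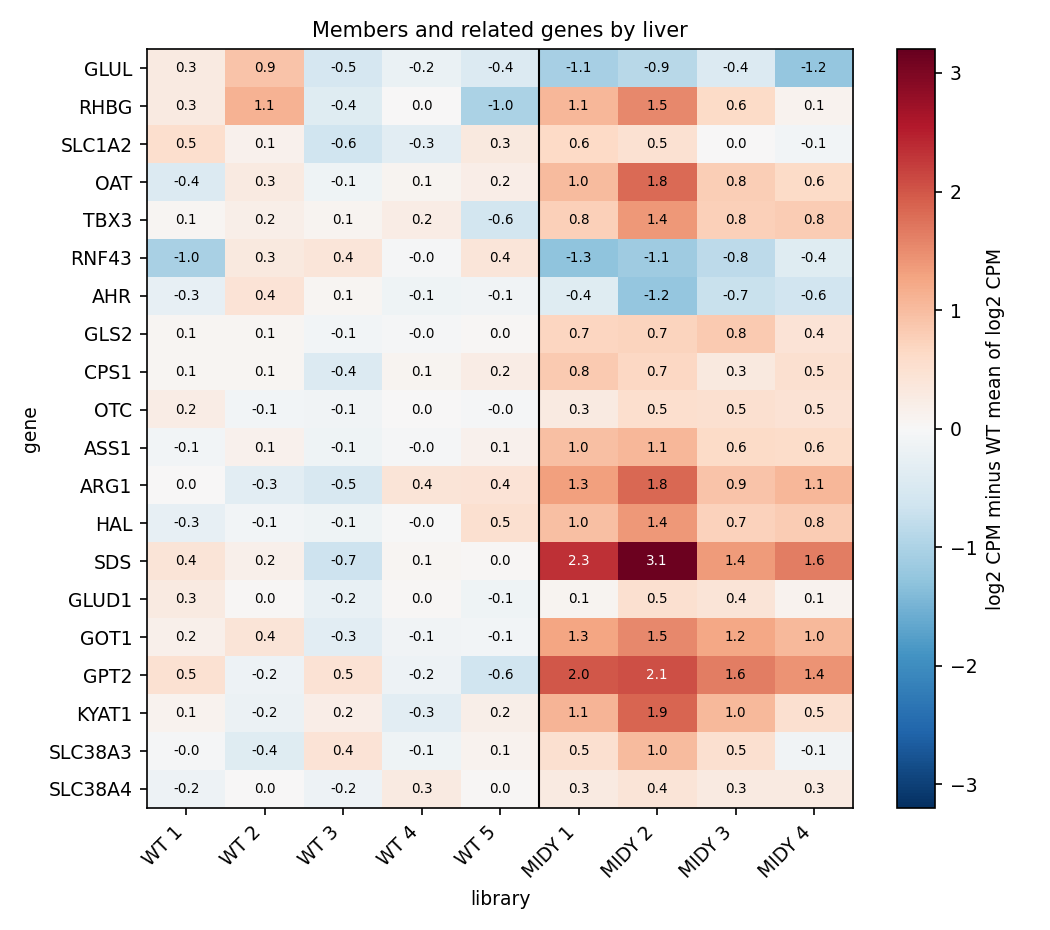
Log2 CPM minus the WT mean of log2 CPM (colour and printed number) for the 4 members and 16 related genes in each of the 9 libraries, WT left of the line and MIDY right. GLUL is below 0 in all MIDY livers while RHBG, OAT, GLS2 and the 4 urea cycle genes shown (CPS1, OTC, ASS1 and ARG1) are above 0, and MIDY replicate 2 has the highest value of SDS, ARG1, OAT and RHBG.

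The genes whose profile over the 9 libraries was most like that of each member were ranked by Pearson correlation of log2 CPM among 11511 candidates, as a description only. These points share the group difference and the library scaling, so the correlation after subtracting group means is given as well. Both correlations use the same 9 libraries, and picking the top of 11511 candidates favours high values of both. For GLUL the closest were KLHL5 (0.98, and 0.97 within groups), CASD1 (0.95 and 0.90) and IKZF2 (0.94 and 0.90). GLS2 was most like EIF5 (0.98 and 0.88) and MIGA2 (0.97 and 0.75). GLUD1 was closest to PCGF5 (0.95 and 0.93) and CCDC129 (0.94 and 0.91), and RHBG to KIAA1429 (0.93 and 0.90), F11, coagulation factor XI (0.92 and 0.88), and RPS6KC1 (0.92 and 0.94). No gene appeared in the lists of more than 1 member.

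Markers of other liver cells were measured beside the members. The summed level of 8 stellate cell and fibroblast markers was 348 to 614 CPM in WT and 251 to 376 CPM in MIDY liver, with WT replicate 2 the highest and COL1A2 called lower (edgeR adjusted p = 0.0434). For 9 lymphocyte markers the sum was 17.5 to 26.0 CPM in WT and 10.5 to 13.5 CPM in MIDY liver, again highest in WT replicate 2, and CD2 was called lower (edgeR adjusted p = 0.0377). Sums of 7 macrophage markers (443 to 676 CPM in WT, 389 to 481 CPM in MIDY), 6 endothelial markers (573 to 682 and 594 to 684 CPM), 6 biliary markers (29.8 to 76.5 and 25.4 to 37.2 CPM), 4 neutrophil markers (2.71 to 6.99 and 1.57 to 4.06 CPM), 3 red cell markers (68.7 to 1488 and 161 to 535 CPM) and 4 fat and muscle markers (1.11 to 1.51 and 1.52 to 2.87 CPM) included 0 called genes. No listed marker was at 0 counts over all libraries, but ADIPOQ, MPO, MYH1 and CKM had at most 1, 3, 3 and 4 counts in any library. The part of these cells in the GLUL difference was not tested.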

How the data were processed

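RNA from 1 liver per pig was sequenced after ribosomal depletion (9 libraries, grouped by the genotype label). The submitters' processing notes name STAR, HTSeq and DESeq2 and the build Sscrofa11.1. Their versions, the annotation, the strand setting and the handling of reads with several matches are not given in the sources used, so overlapping genes are uncertain. The deposited values are raw counts, 1 row per symbol, as the authors made them, and 0 columns were left unused. Positions come from the RefSeq gene table for that build, which held all 29837 symbols. That table gives spans, not transcript lengths, so levels were not compared between genes.

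Counts were tested across all genes with edgeR 4.0.16 in R 4.3.3 (filterByExpr, TMM, robust quasi-likelihood fit, two-sided, Benjamini-Hochberg adjustment over 14100 genes, called at an adjusted p below 0.05). The script was tested on simulated data. Standard errors were obtained as log2 fold change over the root of the F statistic. Log2 CPM has a prior count of 2, and 0.5 was added to counts in ratios. Depth was 14115415 to 19533463 counts, and counting error is given where it bears on a gene. Animals are the replicates, and the labels name no batch.

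Members and gene lists were chosen with earlier results of these data known. Named genes are the members, the called genes of each of the 9 lists (up to 8, filled to 4 by smallest p), RHCG, RHAG, SLC1A2, SLC38A3 and CPS1, overlapping genes, and for each member the 3 genes of at least 1 CPM (LOC names left out) with the most similar profile. A few genes under this rule are not reported here. RHCE, NAGS, ALDH1B1, G6PC, other genes listed at 0 counts and further examples from the lists of regulators and cell markers were named after their values were seen. So were CYP7A1 and the other pericentral markers compared in WT replicate 2. OAT, SDS, HAL, ARG1, ASS1, ASL, CPS1, OTC, SLC1A2 and GPT stand in 2 lists each. Alternatives were RLE factors, total counts, the 10 most abundant genes taken out, no or a stricter filter (1 CPM in 4 libraries), DESeq2 1.42.0, limma voom (3.58.1) with sample weights, and each library left out. Leaving out WT replicates 1 and 2 together was added after seeing the data.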

Additional observations from a re-analysis of the deposited data

Results flagged for a closer look

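In 45 genes checked in each group, 6 of 90 checks found a library whose gap to the nearest other library was a large share of the group's range; chance alone gives about 1 in 20. TBX3 was flagged in both groups, low in WT replicate 5 (13.16 CPM, others 20.7 to 23.1 CPM) and high in MIDY replicate 2 (51.71 CPM, others 33.6 to 34.5 CPM). SLC38A4 was high in MIDY replicate 2 (1408 CPM, others 1275 to 1289 CPM). HAL was high in WT replicate 5 (78.01 CPM, others 45.9 to 54.3 CPM), AMPD3 in MIDY replicate 1 (30.76 CPM, others 18.3 to 20.1 CPM) and TCF7L2 in WT replicate 3 (52.59 CPM, others 25.1 to 31.3 CPM). None of GLUL, GLS2, GLUD1 and RHBG was flagged in either group.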

How the results depend on the processing

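All 4 members kept the sign of their log2 fold change under every alternative run. With each library left out in turn GLUL ranged from -1.16 to -0.68, GLS2 from 0.62 to 0.74, GLUD1 from 0.20 to 0.35, RHBG from 0.46 to 1.12, and the GLS2 to GLUL log2 ratio difference from 1.35 to 1.69. DESeq2 called 639 genes, 355 higher and 284 lower, in place of 165, 115 and 50, with 4 urea cycle, 4 pericentral and 8 periportal genes. Under limma voom 82 genes were called lower, and under total counts 2 pericentral genes were called. Without WT replicates 1 and 2 together 66 genes were called, 42 higher and 24 lower, with 1 ammonia-releasing and 1 periportal gene and 0 urea cycle, pericentral or other glutamine-using genes. With single libraries left out the called genes ranged from 38 to 259, the higher from 34 to 152 and the lower from 4 to 107. Over the same fits the counts ran from 0 to 1 for other glutamine users, 2 to 3 for glutamate enzymes, 1 to 4 for the urea cycle, 1 to 4 for ammonia-releasing enzymes, 0 to 2 for pericentral and 1 to 6 for periportal markers. Only the settings with libraries left out fitted fewer libraries, and the number of called genes both rose and fell among them. The cause of these shifts was not tested. Of 697 refits of the 41 named genes other than the members, 48 lost a call, 17 gained one and 0 changed sign. Among the members GLS2 was called in every fit, and GLUL was called by DESeq2 alone. The members were chosen with this contrast known, so these calls describe the fits and nothing is read from them. Counting error was largest for RHBG (88 to 437 counts) but smaller than its spread among livers. No paired analysis was possible because the labels give no number that links MIDY and WT animals.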

Other observations

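WT replicate 2 was compared with the other 4 WT livers for the members and the pericentral list, after its high GLUL value was seen. GLUL was 2.17-fold and RHBG 2.48-fold the mean of the others, whereas GLS2 and GLUD1 were 1.05-fold and 1.03-fold. CYP7A1, which opens bile acid synthesis, measured 524 CPM there against 39.3 to 107 CPM in the other WT livers. SLC1A2, AXIN2, LGR5 and CYP2E1 were 1.08-fold, 1.08-fold, 1.24-fold and 1.20-fold the mean of the others, and CYP1A2 0.697-fold. AHR, OAT and RGN were 1.46-fold, 1.26-fold and 1.22-fold that mean, each above every other WT liver. In contrast, CYP1A2, ZNRF3, NOTUM and LHPP lay below every other WT liver. The high level of GLUL and RHBG in this liver was thus not a feature of every pericentral marker. These are values of 1 animal without a test.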
